A study of Rattus norvegicus with 18 samples.

Results

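Macrophages enter damaged skeletal muscle as monocytes from the blood, or renew in place, and they clear dead fibres and steer regeneration and scarring. Growth and survival of the lineage depend on colony stimulating factor 1 (Csf1), which is made by other cells as well as by macrophages, and on its receptor Csf1r, a receptor tyrosine kinase. In dystrophic muscle, where fibres repeatedly break down and regrow, macrophages are a standing feature of the tissue. A total of 10 genes used to recognise these cells were followed here by symbol, Csf1 and Csf1r, the lysosomal or granule products Cd68, Lyz2 and Mpeg1, the surface proteins Adgre1, Itgam and Cd14, and the scavenger and mannose receptors Cd163 and Mrc1. All 10 had 1 entry each among the 30560 entries of the deposited tables, and all 10 passed the filter on low counts in both fits.

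RNA was sequenced from sections of frozen tibialis anterior, the muscle at the front of the shin, of rats. The libraries of 9 months comprised 6 p16-null DMD, 3 DMD (rats that model Duchenne muscular dystrophy) and 3 wild-type (WT) samples. Older and younger WT rats, of 18 and 3 months, gave 3 libraries each. The labels name genotypes but not the edited alleles of the dystrophin gene or of p16, and they give no sex or drug treatment. The titles number the libraries within a group, and no label states whether each library is a different rat. The p-values here set differences against the spread between these libraries, a spread that may be partly technical.

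Libraries held 9.61 M to 21.99 M estimated counts. Dmd, which encodes dystrophin, stood at 30.9 to 54.1 CPM (counts scaled to library size) in p16-null DMD, at 31.4 to 44.3 in DMD and at 114 to 167 in WT muscle of 9 months, so the dystrophic labels carried the low Dmd level. Cdkn2a, the gene of p16, stood at 10.1 to 15.3 CPM in p16-null DMD and at 10.7 to 19.4 CPM in DMD muscle. Counts per gene pool its p16 and Arf transcripts, so they cannot check the p16-null label. The 5 muscle fibre genes with an entry (Ckm, Acta1, Myh4, Myh2 and Tnnt3) summed to 27348 to 58818 TPM (a transcript share scaled by gene length) in p16-null DMD, 35228 to 43905 in DMD, 65144 to 80998 in WT of 9 months, 51753 to 59851 in WT of 18 months and 73447 to 78777 in WT of 3 months, so every library carried abundant fibre RNA.

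PU.1, the product of Spi1, is a transcription factor that many macrophage genes depend on, and it binds around a GGAA core. The 250 bases before the RefSeq gene start (build GRCr8) were therefore read for 9 of the 10 genes matched by symbol. The letters GAGGAA on either strand were found in 7 of these 9, against 23.3% of 33469 promoters of the same length. They were in Cd68, Mrc1, Csf1r, Adgre1, Cd14, Lyz2 and Itgam, and not in Cd163 or Mpeg1. The AP-1 letters TGANTCA were in 1 of the 9, Cd68, which held 2 matches (6.34% of all promoters), and the C/EBP letters TTGCNNAA in 3 of the 9, Adgre1, Lyz2 and Itgam (9.22% of all promoters). No match overlapped another. A match is a string of letters, not a bound site. Shown 5′ to 3′ on the strand of the gene are Csf1r and Itgam with 2 matches each, Lyz2 with 1 and Mpeg1 with none, and capitals mark GAGGAA or its reverse complement TTCCTC.
Csf1r, chr18:56834129-56834378, plus strand: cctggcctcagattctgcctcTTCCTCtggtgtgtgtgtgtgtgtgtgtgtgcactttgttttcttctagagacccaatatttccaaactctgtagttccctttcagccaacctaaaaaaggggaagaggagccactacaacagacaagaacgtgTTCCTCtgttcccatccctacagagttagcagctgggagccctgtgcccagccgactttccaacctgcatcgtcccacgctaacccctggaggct
Itgam, chr1:192089342-192089591, plus strand: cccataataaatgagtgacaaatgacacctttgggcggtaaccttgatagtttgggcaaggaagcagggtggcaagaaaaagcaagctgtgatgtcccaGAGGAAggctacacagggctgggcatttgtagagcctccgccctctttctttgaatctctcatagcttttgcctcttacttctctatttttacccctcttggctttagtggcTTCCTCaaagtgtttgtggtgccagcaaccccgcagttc
Lyz2, chr7:54798012-54798261, minus strand: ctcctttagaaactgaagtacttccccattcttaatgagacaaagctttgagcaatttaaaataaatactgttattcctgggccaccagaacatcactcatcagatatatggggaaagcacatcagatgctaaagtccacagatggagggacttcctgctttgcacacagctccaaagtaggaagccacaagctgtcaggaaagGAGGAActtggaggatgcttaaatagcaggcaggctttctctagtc
Mpeg1, chr1:218876644-218876893, plus strand: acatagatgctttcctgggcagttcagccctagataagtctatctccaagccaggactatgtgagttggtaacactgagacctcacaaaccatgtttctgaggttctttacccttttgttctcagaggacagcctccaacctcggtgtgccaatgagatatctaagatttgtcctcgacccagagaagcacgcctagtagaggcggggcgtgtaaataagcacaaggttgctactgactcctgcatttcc
In Csf1r the matches began 229 and 95 bases before the start, in Itgam 151 and 39 bases, and in Lyz2 46 bases. These 4 genes moved in the same direction in dystrophic muscle, with and without the letters.

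How far macrophage genes differ in dystrophic muscle was read first from DMD against WT at 9 months. All 10 genes rose in DMD, by 1.78 to 3.40 on the log2 scale with a median of 2.65, and for each of them every DMD library lay above every WT library. Of all 14801 genes tested 26.4% rose and 21.8% fell in DMD (48.3% either way), with a median change over all genes of 0.11, while 30.5% lay higher and 25.8% lower with groups that did not overlap. Lysozyme, Cd68 and Mpeg1 had the largest changes and the F4/80 gene Adgre1 the smallest. The same 10 rose in p16-null DMD against WT, by 1.51 to 3.46 with a median of 2.55. There 27.5% of all genes rose and 22.7% fell (50.2% either way), and 23.5% lay higher and 21.6% lower without overlap. Both comparisons share the 3 WT libraries. Changes are log2 fold changes with their SE from the edgeR quasi-likelihood test, with Benjamini-Hochberg p-values over every gene in the fit, and a gene counted as changed below 0.05. Levels in single libraries are given as CPM on 1 common scale.

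**Figure D1:**
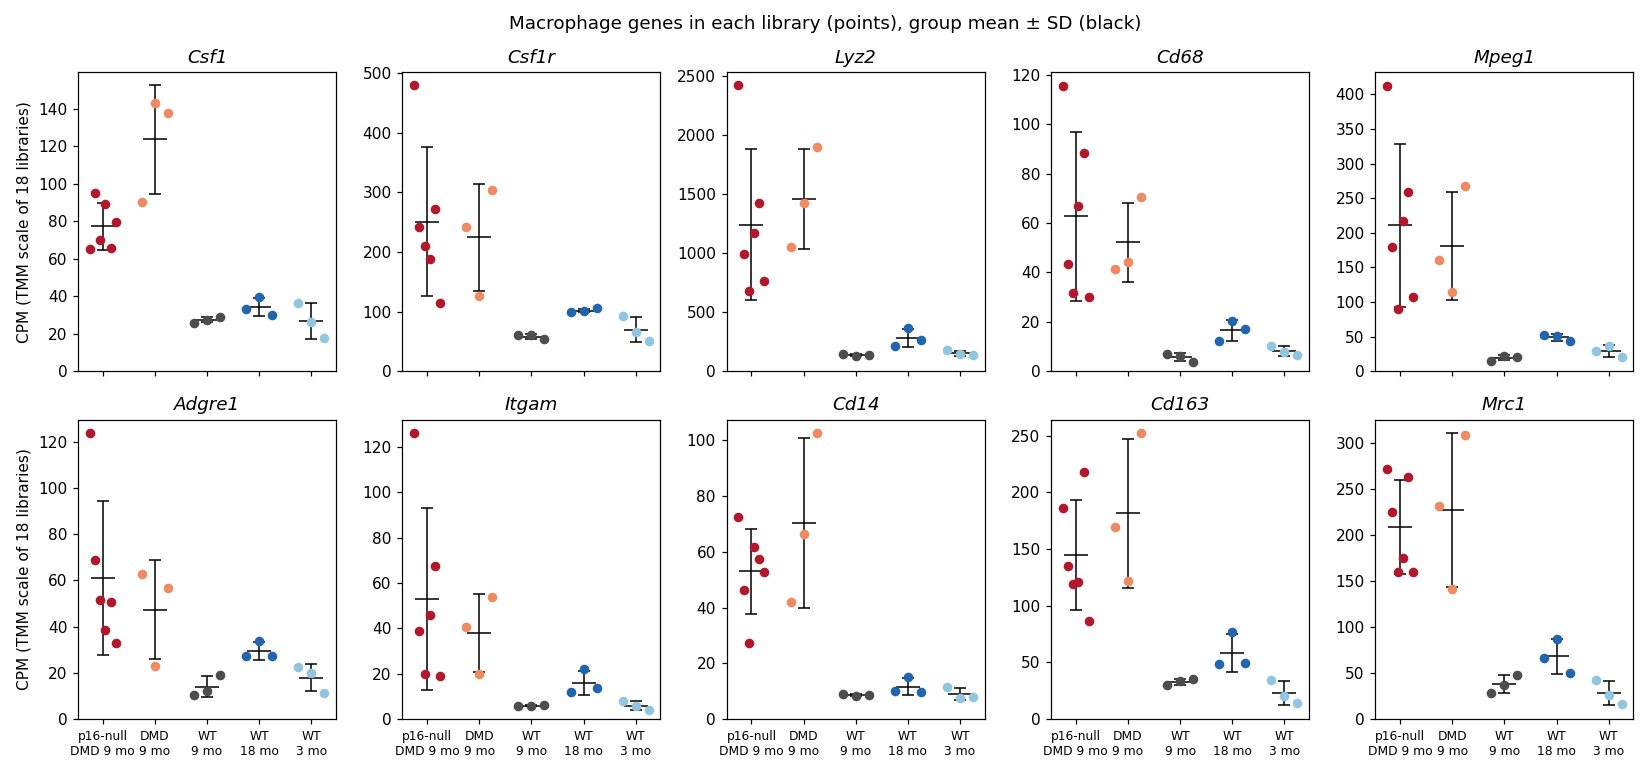
Levels of the 10 genes in CPM (y axis, linear from 0, scaled by TMM over 18 libraries) in each library (points) of the 5 groups, with group mean and SD in black (n = 6 for p16-null DMD, n = 3 for the others). Every dystrophic library lies above every WT library of 9 months, and p16-null DMD replicate 1 is the highest library for 6 genes.

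Csf1, the growth factor, had 65.4, 74.8 and 95.1 CPM as the lowest, median and highest of the 6 p16-null DMD libraries, 90.4, 143 and 138 CPM in DMD replicates 1 to 3, and 25.99, 27.6 and 28.8 CPM in WT replicates 1 to 3. The WT libraries lay close together, and DMD replicate 1 lay within the p16-null DMD range. The change was 2.18 ± 0.198 in DMD against WT (adjusted p = 2.3e-06, edgeR) and 1.51 ± 0.178 in p16-null DMD against WT (adjusted p = 9e-06). Csf1r, the receptor, had 115, 226 and 480.1 CPM as the lowest, median and highest in p16-null DMD, 242, 127 and 304 CPM in DMD and 60.4, 60.1 and 54.1 CPM in WT. The dystrophic libraries spread over several-fold, while the WT libraries hardly differed. Csf1r rose by 1.95 ± 0.403 in DMD (adjusted p = 0.001) and by 2.11 ± 0.375 in p16-null DMD (adjusted p = 0.00029).

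Among the lysosomal and granule products, Lyz2 encodes lysozyme, an enzyme that cuts bacterial cell walls. It was at 676, 1079 and 2419.6 CPM as the lowest, median and highest in p16-null DMD, at 1055, 1422 and 1895 CPM in DMD and at 149, 129 and 136 CPM in WT. It changed by 3.40 ± 0.403 in DMD (adjusted p = 1.3e-05) and by 3.17 ± 0.377 in p16-null DMD (adjusted p = 9.8e-06). Lyz2 counts were fractional in each library, so reads were shared with other entries, and its level is less certain than those of the other 9 genes, whose counts were whole. Cd68, a glycoprotein of the lysosome membrane, was at 30.1, 55.2 and 116 CPM in p16-null DMD, at 41.5, 44.2 and 70.7 CPM in DMD and at 6.87, 6.35 and 3.86 CPM in WT. Its changes were 3.20 ± 0.479 (adjusted p = 8.2e-05) in DMD and 3.46 ± 0.457 (adjusted p = 2.3e-05) in p16-null DMD. Mpeg1, a pore-forming protein that attacks engulfed bacteria, was at 90.3, 199 and 413 CPM in p16-null DMD, at 161, 115 and 267 CPM in DMD and at 15.4, 22.3 and 20.9 CPM in WT. It rose by 3.22 ± 0.483 in DMD (adjusted p = 8.2e-05) and by 3.44 ± 0.462 in p16-null DMD (adjusted p = 2.6e-05). No dystrophic library of these 3 genes came near the WT range.

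Of the surface proteins, Adgre1 encodes F4/80, the classic surface antigen of mouse macrophages. It had 32.7, 50.9 and 124 CPM as the lowest, median and highest in p16-null DMD, 62.6, 22.8 and 56.7 CPM in DMD and 10.4, 12.2 and 19.0 CPM in WT. DMD replicate 2 stood just above the highest WT library, and the change in DMD was 1.78 ± 0.462 (adjusted p = 0.0054), against 2.13 ± 0.431 in p16-null DMD (adjusted p = 0.00082). Itgam encodes CD11b, the alpha chain of a beta2 integrin with which monocytes and neutrophils adhere and bind complement. It had 19.0, 42.4 and 126 CPM in p16-null DMD, 40.7, 19.7 and 53.8 CPM in DMD and 5.82, 5.54 and 6.07 CPM in WT. The highest p16-null DMD library held 6.62 times the CPM of the lowest, the widest ratio of the 10 genes in that group. Itgam changed by 2.71 ± 0.615 in DMD (adjusted p = 0.0021) and by 3.17 ± 0.587 in p16-null DMD (adjusted p = 4e-04). Cd14, the co-receptor that hands bacterial lipopolysaccharide to Toll-like receptor 4, had 27.2, 55.1 and 72.3 CPM in p16-null DMD, 42.0, 66.4 and 103 CPM in DMD and 8.87, 8.24 and 8.46 CPM in WT. The changes were 3.04 ± 0.338 (adjusted p = 8.1e-06) and 2.63 ± 0.313 (adjusted p = 9.5e-06).

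Cd163, the receptor for haemoglobin bound to haptoglobin, and Mrc1, the mannose receptor CD206, mark tissue-resident and repair-associated macrophages. Cd163 had 86.9, 128 and 218 CPM as the lowest, median and highest in p16-null DMD, 169.7, 122 and 252 CPM in DMD and 30.2, 33.4 and 35.5 CPM in WT. Mrc1 had 159.6, 199.8 and 272 CPM in p16-null DMD, 231, 142 and 308 CPM in DMD and 28.3, 37.3 and 48.3 CPM in WT. Both were raised in every dystrophic library. Cd163 changed by 2.46 ± 0.312 in DMD (adjusted p = 2.1e-05) and by 2.13 ± 0.286 in p16-null DMD (adjusted p = 2.6e-05), and Mrc1 by 2.59 ± 0.299 (adjusted p = 1.1e-05) and 2.46 ± 0.277 (adjusted p = 6.3e-06).

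The sizes of these changes depend on how libraries are scaled, and none of the calls did. Scaled by library totals, the members' median change was 3.31 in DMD and 3.15 in p16-null DMD against WT, and on deposited TPM with a pseudocount of 1 it was 3.11 and 3.04. In bulk muscle, more macrophages and more RNA of these genes per macrophage cannot be told apart.

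**Figure D2:**
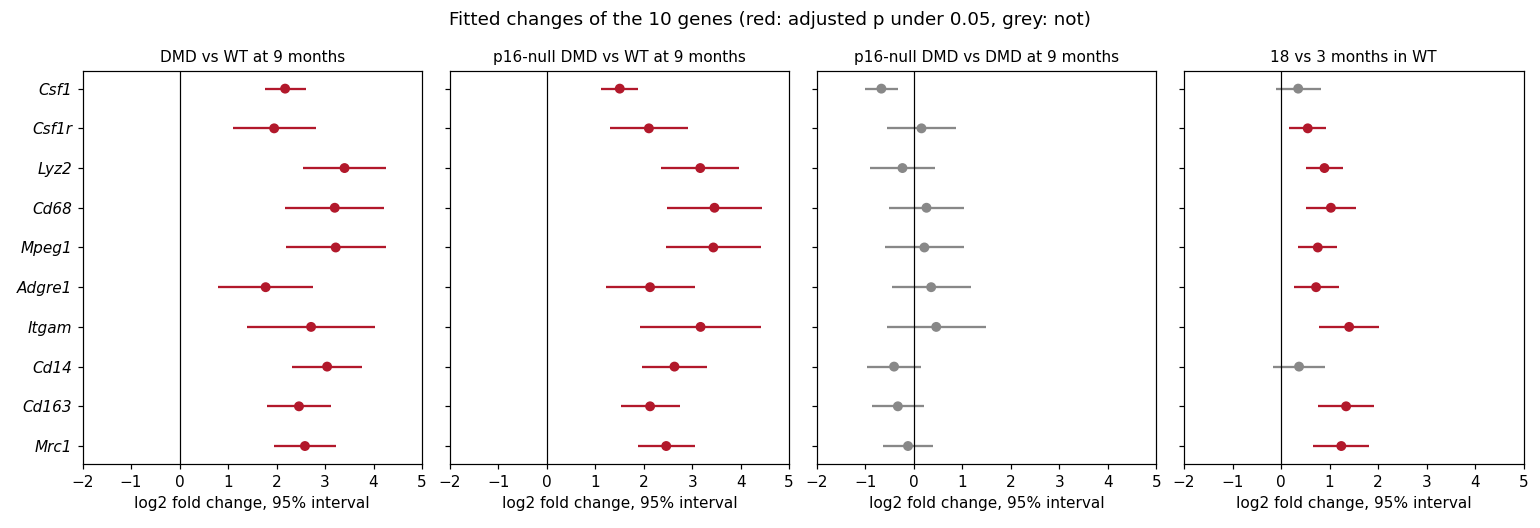
Fitted log2 fold changes (points) with 95% intervals (lines) of the 10 genes in the 4 comparisons, red where the adjusted p was under 0.05. All 10 genes are red in both comparisons with WT at 9 months, none in p16-null DMD against DMD, and 8 in 18 against 3 months.

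Compared per length, Lyz2 was the most abundant of the 10 transcripts in each group, at 1164 to 3999.5 TPM in p16-null DMD, 1748 to 3315 in DMD and 115 to 141 in WT of 9 months, clear of the next gene. Csf1r followed by mean TPM in each of the 5 groups, at 131 in p16-null DMD, 121 in DMD and 18.2 in WT of 9 months. It was clear of the gene after it in the 3 WT groups and overlapped it in both dystrophic groups. Cd68 held rank 3 in p16-null DMD and DMD at means of 114 and 96.3 TPM, and rank 6 in WT of 9 months at 6.05 TPM, where ranks 3 to 8 each overlapped the next. Itgam was the least abundant in all groups, at means of 25.4 TPM in p16-null DMD, 19.4 in DMD and 1.68 in WT of 9 months.

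Other genes linked to the lineage, not all particular to it, were counted from lists chosen with earlier results known. Which cells carried their RNA was not tested. Of the receptors for related growth factors, Csf2rb, the shared beta chain for GM-CSF, IL-3 and IL-5, rose by 3.81 ± 0.470 in DMD against WT (adjusted p = 1.7e-05), Csf2ra by 1.14 ± 0.274 (adjusted p = 0.0032) and the granulocyte receptor Csf3r by 4.61 ± 0.903 (adjusted p = 0.00071). Csf3r had 13 counts in all over the WT libraries of 9 months, which leaves the size of its change uncertain. Il34, the other ligand of Csf1r, had 10.4, 11.4 and 15.3 CPM as the lowest, median and highest in p16-null DMD, 10.1 to 12.5 CPM in DMD and 5.33 to 8.35 CPM in WT. Its change was 0.75 ± 0.228 (adjusted p = 0.014), a call lost without WT replicate 3 (0.60, adjusted p = 0.062). The ligand genes Csf2 and Csf3 were too low to test, with 2 and 33 counts over the 3 DMD libraries and 0 over the WT libraries of 9 months, a depth at which their change was not determined.

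Of resident-type macrophage genes 9 of 10 tested rose in DMD (median 2.14), including Clec10a, a lectin (2.21 ± 0.216), the scavenger receptor Stab1 (1.72 ± 0.214) and the complement gene C1qa (2.14 ± 0.302). Of monocyte genes 7 of 9 rose (median 2.78), among them the matrix proteoglycan Vcan (3.02 ± 0.397), Plac8 (2.65 ± 0.354) and the ficolin Fcnb (7.0 ± 0.998). Fcnb had 15 counts in all over the WT libraries of 9 months, which leaves the size of its change uncertain. Macrophage transcription factors rose in 4 of 8 cases (median 0.70), namely Irf8 (2.61 ± 0.342), Runx1 (2.54 ± 0.47), Spi1, the PU.1 gene (2.19 ± 0.452), and Zeb2. The other 4 did not pass. Of these Cebpb was lower, at a mean of 63.9 CPM in DMD and 97.5 CPM in WT of 9 months. In p16-null DMD against WT 4 of the 8 rose and 1 fell, with Cebpb at a mean of 55.9 CPM. In DMD, partners of Cd14 in Toll-like receptor signalling rose in 7 of 8 cases (median 1.89), with Lbp, Tlr2 and the adaptor Myd88 at 1.93 ± 0.220, 4.27 ± 0.566 and 2.18 ± 0.311. Beta2 integrins and their ligands rose in 6 of 8 cases (median 2.10), and Itgb2, the beta chain that pairs with Itgam, rose by 3.09 ± 0.544, Icam1, a ligand, by 2.47 ± 0.325 and complement C3 by 2.94 ± 0.406. All 12 tested genes of phagocytosis and Fc receptors rose (median 2.64), with the inhibitory Fc receptor Fcgr2b at 4.29 ± 0.303, Lgals3 at 2.83 ± 0.280 and Axl at 1.37 ± 0.167. All 6 tested pan-leukocyte genes rose (median 2.54), with Laptm5 at 2.54 ± 0.307, Vav1 at 3.56 ± 0.590 and Ptprc, which encodes CD45, at 2.54 ± 0.471. Of all genes tested 26.4% rose in DMD. Adjusted p over the named genes that rose in DMD ran up to 0.0016 (Zeb2, 1.08 ± 0.234, edgeR). Apart from Zeb2 and Cebpb, genes were named from these lists for the smallest p of their list in DMD against WT. Low values follow in part from that choice, as they do for the lists of other cells below.

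Markers of several other cells also rose in DMD, where 26.4% of all genes tested rose. In p16-null DMD against WT 27.5% of all genes rose. There 4 of 7 neutrophil genes, 4 of 7 T and NK cell genes and all 8 fibroblast genes rose. Neutrophils also carry Itgam and Lyz2, and 6 of 7 tested neutrophil genes rose in DMD, with Mmp8, Cxcr2 and Mpo at 5.56 ± 1.21, 3.71 ± 0.896 and 4.18 ± 1.04 (adjusted p = 0.0016 to 0.0041). Their 10 entries summed to 36.6 to 534 TPM in p16-null DMD, 96.3 to 323 in DMD and 8.10 to 30.6 in WT of 9 months, with Elane at 0 in p16-null DMD and Camp at 0 in WT. Fibroblasts can express Csf1 and Cd14, and all 8 fibroblast genes rose, with Dpt, Mfap5 and Pdgfra at 1.87 ± 0.205, 1.52 ± 0.205 and 1.89 ± 0.255. They summed to 3726 to 6196 TPM in p16-null DMD, 3003 to 5562 in DMD and 966 to 1098 in WT of 9 months, with none at 0. T and NK cell genes rose in 6 of 7 cases, with Cd3e, Cd8a and Cd3g at 5.94 ± 1.06, 2.89 ± 0.678 and 4.13 ± 1.001, and summed to 22.1 to 36.9 TPM in p16-null DMD, 25.5 to 61.7 in DMD and 4.60 to 6.19 in WT. The plasma cell gene Jchain rose by 6.91 ± 0.926. Summed over the WT libraries of 9 months there were 1 Cd3e, 4 Cd3g, 1 Mmp8, 6 Mpo and 3 Jchain counts. The sizes of these changes are therefore uncertain, though the calls held in all alternatives. Over the alternatives Cd3e ran from 2.38 to 8.32, Mmp8 from 1.48 to 7.875 and Jchain from 4.37 to 10.59.

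Dendritic cell genes split. In DMD Flt3 rose by 1.70 ± 0.575 (adjusted p = 0.024), Zbtb46 fell by 0.87 ± 0.298 (adjusted p = 0.025) and Batf3 was at 2.31 ± 0.933 (adjusted p = 0.053), and 5 of 7 did not pass. Batf3 passed in 7 of its 23 alternatives, by library totals, DESeq2, both limma fits on TPM, 1 fit of 18 libraries, and without p16-null DMD replicate 1 or replicate 4. The 7 summed to 16.8 to 40.5 TPM in p16-null DMD, 20.5 to 25.5 in DMD and 8.98 to 11.8 in WT. Flt3 did not pass when WT replicate 3 (1.25, adjusted p = 0.093) or DMD replicate 1 (1.37, adjusted p = 0.086) was left out, nor did Zbtb46 without WT replicate 1 or 2 or DMD replicate 2 (adjusted p = 0.059 to 0.096) or by library totals (-0.22, adjusted p = 0.56), and limma on log2(TPM + 1) left it at -0.037 (adjusted p = 0.91) and on log2(TPM + 0.1) at -0.056 (adjusted p = 0.89). Of the 5 endothelial genes 1 fell, Cdh5 (-0.64 ± 0.194, adjusted p = 0.014), a share near the 21.8% of all genes that fell. The call was lost without WT replicate 1 or 2 or DMD replicate 2 (adjusted p = 0.052 to 0.063), and the direction turned by library totals (0.026). Kdr was at -0.41 ± 0.256 (0.25 by library totals) and Pecam1 at 0.26 ± 0.166 (0.91, past the threshold, by library totals). In p16-null DMD against WT 1 of the 5 endothelial genes rose and 1 fell. Endothelial genes summed to 284 to 359.9 TPM in p16-null DMD, 277 to 348 in DMD and 167 to 202 in WT. All 5 muscle fibre genes fell in DMD, with Tnnt3, Myh4 and Ckm at -1.59 ± 0.275, -1.80 ± 0.323 and -2.01 ± 0.463. The part of these other cells in the rise of the 10 genes was not tested.

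What the p16-null genotype alters in dystrophic muscle was read from p16-null DMD against DMD. None of the 10 genes changed by edgeR, where 0% of all genes rose and 0.00676% fell, and none did by DESeq2 or by limma on TPM. The groups overlapped for all 10 (1.1% of all genes lay higher and 0.899% lower without overlap), and the members' median was 0.017, against 0.020 over all genes. A single member, Csf1, had an unadjusted p under 0.05. It was at -0.67 ± 0.159 (95% interval -1.01 to -0.33, unadjusted p = 0.000731, adjusted p = 0.38). Without DMD replicate 1, the DMD library with the least Csf1, it fell by 0.84 on the log2 scale and passed (adjusted p = 0.027), when 85 genes passed in all. Over its 24 alternatives its adjusted p ran from 0.027 to 1. Csf2rb was at -1.31 ± 0.341 (adjusted p = 0.46) and at -1.66 without DMD replicate 1 (adjusted p = 0.029).

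For the other 9 genes the 95% intervals of the difference included 0 and were wide. They ran from -0.56 to 1.48 for Itgam (0.46), from -0.46 to 1.17 for Adgre1 (0.36), from -0.52 to 1.04 for Cd68 (0.26), from -0.59 to 1.03 for Mpeg1 (0.22) and from -0.56 to 0.87 for Csf1r (0.16). For Mrc1 (-0.12) the interval was -0.63 to 0.39, for Lyz2 (-0.24) -0.91 to 0.43, for Cd163 (-0.33) -0.86 to 0.20 and for Cd14 (-0.41) -0.96 to 0.14. A difference of 2-fold, 1 on the log2 scale, thus lay inside the intervals of Itgam, Adgre1, Cd68 and Mpeg1, and just inside that of Csf1. Adjusted p was 0.95 to 0.99 for these 9 genes.

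**Figure D3:**
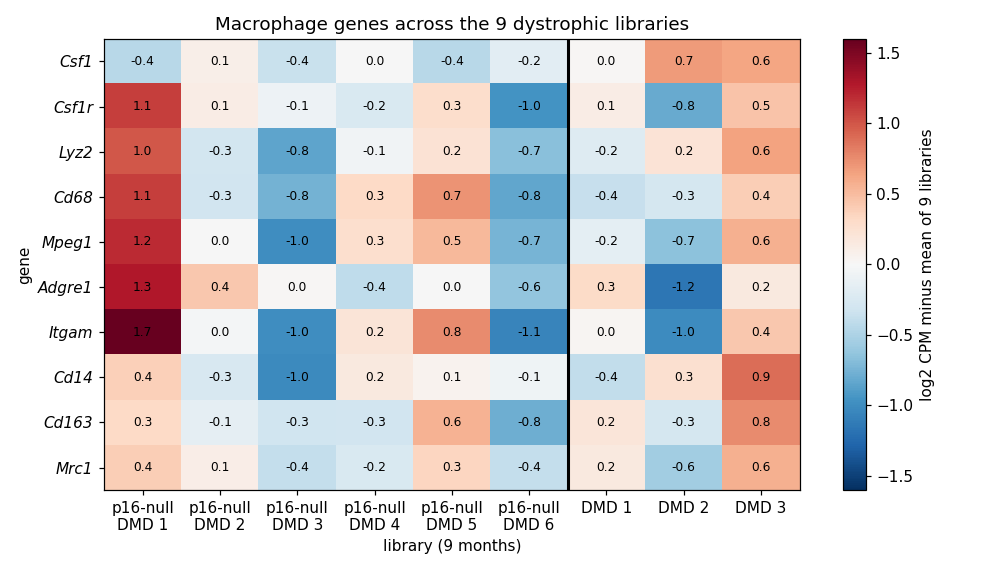
Log2 CPM of each gene minus its mean over the 9 dystrophic libraries (colour and printed value), with p16-null DMD libraries left of DMD libraries. All genes but Csf1 are above their mean in p16-null DMD replicate 1, and Csf1 is at its lowest there.

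For the 9 genes other than Csf1 the highest p16-null DMD library held 1.70 (Mrc1) to 6.62 (Itgam) times the CPM of the lowest, and for Csf1 1.45 times. In p16-null DMD replicate 1 all 9 genes other than Csf1 lay above their mean over the 9 dystrophic libraries, by 0.32 to 1.66 on the log2 scale and by 0.94 on average. It was the highest library for Cd68, Csf1r, Adgre1, Lyz2, Itgam and Mpeg1, and at the same time the lowest for Csf1 (-0.45). In p16-null DMD replicate 6 all 9 lay below their mean, by 0.68 on average, and it was the lowest for Cd68, Cd163, Csf1r and Itgam. Replicate 3 of the same group averaged -0.60 and was the lowest for Cd14, Lyz2 and Mpeg1. DMD replicate 3 averaged 0.54 and was the highest for Cd163, Mrc1 and Cd14, whereas DMD replicate 2 averaged -0.47 while holding the most Csf1 (0.68). Csf1 did not follow the other 9 from library to library. Neutrophil genes summed to 534 TPM in p16-null DMD replicate 1 and to 323 and 304 TPM in DMD replicates 2 and 3. They summed to 96.3 TPM in DMD replicate 1 and to 36.6 to 125 TPM in the other p16-null DMD libraries. Much of the sum in p16-null DMD replicate 1 lay in Retnlg (283 TPM) and S100a8 (135 TPM). The part of neutrophil genes in the spread was not tested. Without p16-null DMD replicate 1 Csf1r stood at -0.13 and Mpeg1 at -0.082 against DMD, on the other side of 0, and neither passed with or without it. All 10 genes still rose against WT without that library.

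Ratios between 2 genes within a library do not depend on how libraries are scaled, and show unequal change of the 2. Relative to Cd68 the log2 ratio of Cd163 was 1.32 ± 0.471 in p16-null DMD (SD, n = 6), 1.78 ± 0.286 in DMD (n = 3) and 2.57 ± 0.552 in WT of 9 months (n = 3). The difference between p16-null DMD and WT was -1.25, with groups that did not overlap (two-sided exact permutation p = 0.0119, the smallest that 6 against 3 allows, and 0.238 adjusted over 20 ratio tests). Between DMD and WT it was -0.79 (exact p = 0.10, the smallest that 3 against 3 allows). In WT of 18 and 3 months the ratio of Cd163 to Cd68 was 1.802 ± 0.255 and 1.415 ± 0.316 (SD, n = 3 each). Each of those libraries lay within the range of the dystrophic libraries (0.69 to 2.03). The lower ratio thus held against WT of 9 months only. The ratio of Adgre1 to Cd68 was -0.0068 ± 0.670 in p16-null DMD, -0.23 ± 0.775 in DMD and 1.27 ± 0.894 in WT of 9 months. It differed by -1.28 between p16-null DMD and WT (exact p = 0.0595) and by -1.50 between DMD and WT (exact p = 0.10), both 0.357 when adjusted. WT replicate 3 of 9 months, which had the fewest Cd68 counts (42), was the highest of the WT libraries in the 4 ratios to Cd68.

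Lyz2 to Cd68 was 4.35 ± 0.244 in p16-null DMD, 4.81 ± 0.179 in DMD and 4.63 ± 0.431 in WT, and it was lower in p16-null DMD than in DMD by 0.46 before adjustment (-0.46, exact p = 0.0357, adjusted p = 0.357). Mrc1 to Cd68 was 1.88 ± 0.543, 2.09 ± 0.398 and 2.74 ± 0.813 in p16-null DMD, DMD and WT. Csf1 to Csf1r, ligand over receptor, was -1.57 ± 0.813 in p16-null DMD, -0.79 ± 0.854 in DMD and -1.08 ± 0.156 in WT. Within p16-null DMD it ran from -2.88 to -0.53, a wider range than in WT, where it ran from -1.22 to -0.91. None of the 20 ratio tests passed after adjustment (exact permutation tests), 2 had an unadjusted p under 0.05, and of the 4 comparisons the 2 with 3 libraries on each side could not have passed. In the other comparisons a single ratio at its smallest possible p, adjusted to 0.238, could not have passed alone either.

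**Figure D4:**
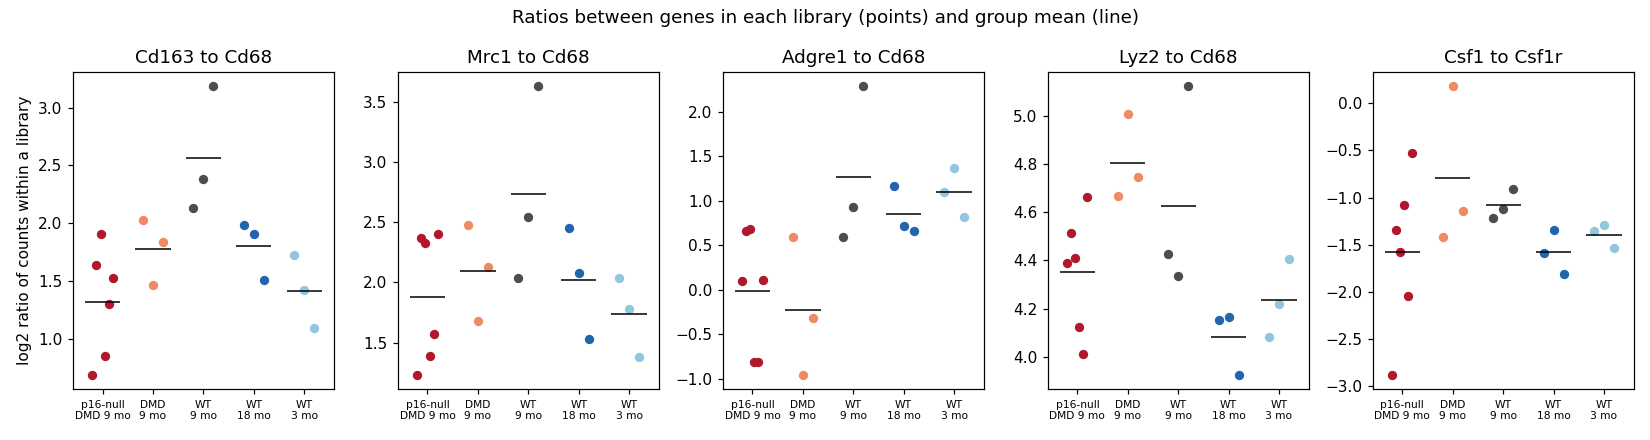
Log2 ratio of counts within each library (points, pseudocount 0.5) and group mean (line) for 5 pairs of genes in the 5 groups. Cd163 relative to Cd68 is lower in each p16-null DMD library than in each WT library of 9 months, and Csf1 relative to Csf1r is lowest in p16-null DMD replicate 1.

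The comparison of 18 with 3 months asked what changes with age in WT muscle. Of the 10 genes 8 rose at 18 months, by 0.55 to 1.40 with a median of 0.83 over all 10, and for these 8 every library of 18 months lay above every library of 3 months. Of 13487 genes tested 9.31% rose and 10.1% fell (19.4% either way), 17.7% lay higher and 18.5% lower without overlap, and the median over all genes was 0.0032. Itgam had 11.8, 21.9 and 13.8 CPM at 18 months, against 7.99, 5.84 and 4.07 CPM at 3 months (1.40 ± 0.288, adjusted p = 0.0032). Cd163 had 48.2, 77.2 and 49.3 CPM at 18 months, against 34.5, 20.6 and 13.8 CPM at 3 months (1.34 ± 0.268, adjusted p = 0.0027). Replicate 2 was the highest of the 18-month libraries for both genes, and replicate 1 the highest at 3 months. Mrc1 had 66.7, 87.1 and 50.1 CPM at 18 months, against 42.8, 26.6 and 16.8 CPM at 3 months (1.24 ± 0.269, adjusted p = 0.0046). Cd68 had 12.1, 20.6 and 17.3 CPM at 18 months, against 10.4, 7.69 and 6.43 CPM at 3 months (1.03 ± 0.244, adjusted p = 0.0083), and missed the threshold without replicate 2 of 18 months (0.85, adjusted p = 0.051).

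Lyz2 had 216, 369 and 263 CPM at 18 months, against 177, 144 and 137 CPM at 3 months (0.89 ± 0.177, adjusted p = 0.0025). Mpeg1 had 52.1, 51.0 and 43.9 CPM at 18 months, against 30.1, 37.0 and 20.1 CPM at 3 months (0.76 ± 0.187, adjusted p = 0.01). These 2 calls held without any single library. Adgre1 had 27.2, 33.8 and 27.3 CPM at 18 months, against 22.4, 19.95 and 11.3 CPM at 3 months (0.72 ± 0.217, adjusted p = 0.03), and the call was lost without replicate 1, 2 or 3 of 18 months or replicate 3 of 3 months (adjusted p = 0.057 to 0.13). Csf1r had 99.5, 100.9 and 105 CPM at 18 months, against 93.1, 65.2 and 51.0 CPM at 3 months (0.55 ± 0.179, adjusted p = 0.044), and the call was lost without replicate 1, 2 or 3 of 18 months or replicate 2 or 3 of 3 months (adjusted p = 0.097 to 0.13). Cd14 (0.37 ± 0.249, adjusted p = 0.34) and Csf1 (0.35 ± 0.217, adjusted p = 0.29) did not pass, and Csf1 passed without replicate 1 of 3 months (0.64, adjusted p = 0.039). Cd14 had 10.2, 15.1 and 9.71 CPM at 18 months, against 11.6, 7.40 and 8.04 CPM at 3 months, and Csf1 had 33.0, 39.8 and 30.1 CPM at 18 months, against 36.5, 26.6 and 17.6 CPM at 3 months. In both genes the groups overlapped.

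With 1 fit of all 18 libraries, whose spread includes the dystrophic groups, only Cd163 and Mrc1 of the 10 passed between 18 and 3 months, with changes of the same size (median 0.82). In a robust fit, 6 passed, without Cd163 (adjusted p = 0.079) and Mrc1 (adjusted p = 0.11). At 18 months 1 fibroblast gene of 8 rose and 3 fell, and the 8 summed to 1110 to 1410 TPM at 18 months and 1178 to 2458 TPM at 3 months. Resident-type macrophage genes rose in 6 of 9 cases and monocyte genes in 2 of 8. Among the named genes of the lists, Stab1 (0.76 ± 0.141, adjusted p = 0.0017), Fcgr2b (2.09 ± 0.462, adjusted p = 0.0053), Lgals3 (0.91 ± 0.174, adjusted p = 0.0021), C3 (2.09 ± 0.354, adjusted p = 0.00086) and Runx1 (4.26 ± 0.25, adjusted p = 5.3e-08) rose, and their calls held in all 17 alternatives. Runx1, a transcription factor that other cells of muscle can express too, averaged 75.3 ± 22.2 CPM at 18 months and 3.92 ± 1.10 CPM at 3 months (SD, n = 3 each). Its 18-month mean lay above those of DMD (37.7 ± 14.6 CPM, n = 3) and p16-null DMD (32.1 ± 15.8 CPM, n = 6), a pair of groups from another age and genotype, with no test made. No neutrophil gene of 4 tested passed by edgeR, and the neutrophil genes summed to 23.5 to 49.6 TPM at 18 months and 12.7 to 30.6 TPM at 3 months.

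Across the WT ages, set on 1 scale, none of the 10 genes separated 3 from 9 months, and all 10 were higher in every library of 18 months than in every library of 9 months. Of all 14982 genes on that scale 9.95% were higher without overlap at 9 than at 3 months, and 15.7% at 18 than at 9 months. Mean Cd163 was 23.0 ± 10.6, 33.0 ± 2.67 and 58.3 ± 16.4 CPM at 3, 9 and 18 months (SD, n = 3 each), and mean Cd68 was 8.17 ± 2.02, 5.69 ± 1.61 and 16.6 ± 4.25 CPM. Cd163 thus had its middle mean at 9 months and Cd68 its lowest. The libraries of 9 months were fitted apart from those of 3 and 18 months. Between 9 months and the other ages, age and any difference between sets of libraries cannot be told apart. For 8 of the 10 genes the lowest of the 9 dystrophic libraries lay above the highest of the 9 WT libraries of any age, as did 10.2% of all genes. The exceptions were Adgre1, where DMD replicate 2 had 22.8 CPM and WT of 18 months reached 33.8 CPM, and Itgam, where p16-null DMD replicate 6 had 19.0 CPM and WT of 18 months reached 21.9 CPM.

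The genes whose pattern over the 18 libraries lay nearest to the mean pattern of the 9 genes other than Csf1 were Laptm5, Clec4a3, Lgmn, Ctss, Lilrb3a and Nfam1. Laptm5 is a lysosomal membrane protein of blood cells, and Lgmn and Ctss are lysosomal proteases. Their root mean square distance in centred log2 CPM was 0.18 to 0.27 among 10189 genes ranked. Within the set itself, the distance of a gene was taken to the mean of the others, with Csf1 left out of every mean. It was smallest for Mrc1 (0.33), Cd163 (0.35) and Mpeg1 (0.35), and largest for Csf1 (0.62) and Adgre1 (0.61). The place of Csf1 may depend in part on that choice. Nearest to Csf1 were instead Icam1 (0.25), Ripk1 (0.26), a kinase of death receptor signalling, and the phosphofructokinase gene Pfkp (0.26). In p16-null DMD against DMD, Icam1 stood at -0.94 ± 0.251 (adjusted p = 0.48) and at -1.23 without DMD replicate 1 (adjusted p = 0.027), and Laptm5 at -0.06 ± 0.246. Icam1 was picked for its likeness to Csf1 over these same libraries, and Laptm5 for its likeness to the 9 other genes. Their values in this comparison follow in part from that choice and are no separate evidence. Likeness over these libraries is a description of samples that fall into dystrophic and WT groups.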

How the data were processed

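The authors deposited RSEM expected counts per gene, not scaled, and TPM values scaled by length and library. Per the submitters' processing notes the tools were Trimmomatic, FastQC, STAR 2.7.10b and RSEM 1.3.3, and the build mRatBN7.2. Annotation and strand setting: not given in the sources used here. Per the labels' protocols RNA was purified with a Qiagen RNeasy kit and made into Illumina TruSeq libraries.

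Entries with no symbol numbered 7162 and held between 3.64 and 17.6% of each library. Counts were rounded (4.50% of values were not whole), low genes were dropped by filterByExpr, and TMM scaling was followed by quasi-likelihood tests in edgeR 4.0.16 under R 4.3.3. A single fit held the 9-month libraries (14801 genes) and a second one the WT libraries of 18 and 3 months (13487 genes). Benjamini-Hochberg adjustment ran over every gene in a fit. SE was taken as the log2 change over the root of F, and 95% intervals use the fit's degrees of freedom. CPM levels share 1 TMM scale of 18 libraries. Replicates differed beyond counting error (lowest chi-square per degree of freedom 12.5).

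Members, lists and tests were chosen with earlier results of these data known. Named are the 10 members, the CSF list, up to 3 genes of each other list by smallest p in DMD against WT, the 6 genes nearest in pattern to the mean of the 9 members other than Csf1, and the 3 nearest to Csf1. Zeb2 and Cebpb of the transcription factors were named besides. Listed genes without an entry are not analysed here. The summed level of the B and plasma cell list is not reported here. Alternatives were RLE scaling, library totals, DESeq2 1.42.0, limma 3.58.1 on log2(TPM + 1) and log2(TPM + 0.1), no filter, at least 5 CPM in 3 libraries, a robust fit, fits of the 2 groups alone or of all 18 libraries, dropping the 50 most abundant genes, a replicate block, and leaving out each library. The edgeR tests were tested on simulated counts with known changes.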

Additional observations from a re-analysis of the deposited data

How the results depend on the processing

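Against WT at 9 months all 10 genes rose in DMD and in p16-null DMD under each of the 24 alternatives, with changes from 1.51 to 4.13 in DMD and from 1.44 to 4.07 in p16-null DMD over genes and alternatives. For 18 against 3 months 8 genes rose, 2 in 1 fit of 18 libraries, and 5 to 9 when a library was left out. Over the 17 alternatives to that comparison member genes lost a call 18 times and gained one 1 time, and no direction turned. In p16-null DMD against DMD no gene passed, and 0 to 1 when a library was left out, the 1 being Csf1 without DMD replicate 1. Near 0 there, directions turned without a call. Mrc1 was at 0.0047 with the replicate block, and with a library left out ran from -0.37 (without DMD replicate 2) to 0.15 (without DMD replicate 3). Csf1r then ran from -0.13 to 0.43 and Mpeg1 from -0.082 to 0.60, both negative without DMD replicate 2 (-0.13 and -0.029) or p16-null DMD replicate 1 (-0.13 and -0.082). The difference in the log2 ratio of Csf1 to Csf1r in DMD against WT ran from -0.20 (without DMD replicate 2) to 0.60, and that of Adgre1 to Cd68 in p16-null DMD against DMD from -0.14 (without DMD replicate 2) to 0.63. Cdh5 and Kdr in DMD against WT were at 0.026 and 0.25 by library totals, at 0.081 and 0.35 with log2(TPM + 1) and at 0.082 and 0.37 with log2(TPM + 0.1). The cause was not tested. No ratio passed under any alternative, and the limit set by the number of libraries holds there too.

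Same-numbered libraries did not deviate together (correlations of -0.178 to 0.0399), a check that cannot tell whether they shared more than a number. With the replicate number as a block 10, 10, 0 and 8 members rose in DMD against WT, p16-null DMD against WT, p16-null DMD against DMD and 18 against 3 months. Over all genes p16-null DMD against DMD gave 1 call, 15 by DESeq2, 0 with the block, 85 without DMD replicate 1 and 2 when DMD replicate 3, or else p16-null DMD replicate 2, was left out. For 18 against 3 months 2622 genes changed, 1742 in 1 fit of 18 libraries and 1696 without replicate 1 of 18 months. With 3 libraries in most groups the spread between libraries, not counting error, limits what can be told.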
